A study of Mus musculus with 8 samples.

Results

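The olfactory receptor genes described here are the 1106 autosomal protein-coding genes whose symbol is Olfr followed by a number in the GENCODE annotation of mm9, out of 21418 autosomal and 22367 nuclear protein-coding genes. Each was taken as its gene span with 1 kb on each side, called its window below, and another 7 such genes on the X chromosome, none of which had a peak in any library, were left out. 5-Hydroxymethylcytosine (5hmC) was mapped by GLIB-Seq, in which glucosylation, periodate oxidation and biotinylation allow DNA fragments that carry 5hmC to be pulled down and sequenced, and the deposited data are lists of peaks. There was 1 library each of E14 embryonic stem cells (ESCs, a cultured mouse line), embryonic fibroblasts (MEFs) of C57BL/6 embryos, and brain and liver of adult C57BL/6 mice aged 8 weeks. In 2 further libraries, E14 ESCs expressed a short hairpin RNA after transfection, directed at Suz12 (shSuz12), a subunit of Polycomb repressive complex 2 (PRC2), or, as the control, at GFP (shGFP). For the MEFs the labels give embryonic day 11 and the methods a later day. Which hairpin against Suz12 was used and how far it lowered Suz12 are not shown by the peak lists, and neither is the identity of the cells, since the lists hold no expression values. The lists held between 130408 peaks in liver and 217025 in MEFs. Their lowest scores ranged from 30 in MEFs and brain to 80 in ESCs and liver, so the lists were cut at different levels, and their read depth is unknown. As each condition has 1 library, no difference between libraries was tested. The 95% intervals over genes are exact (Clopper-Pearson) and cover counting error only. Neighbouring genes are not independent of each other, which these intervals ignore.

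Olfactory receptors are G protein-coupled receptors that bind odorants on the cilia of olfactory sensory neurons in the nose. They form the largest gene family of the mouse, their coding sequence usually lies in a single exon, and they are arranged in clusters on most chromosomes. A sensory neuron transcribes a single receptor gene from a single allele and keeps the others silent, and outside the nose most receptor genes are silent. None of the cells and tissues studied here is the olfactory epithelium. 5hmC is made by TET enzymes from 5-methylcytosine, which in mammals occurs mostly where C is followed by G (CpG).

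The sequence of 7 receptor genes illustrates how CpGs lie in the coding sequence. It does not span the CpG content of all receptor genes, many of which are poorer in CpG. Each stretch is the central 200 bp of the coding sequence in mm9, read 5′ to 3′ on the strand of the gene, with every CpG in capitals, and the genes were chosen for display after their values had been seen. Those with peaks are Olfr750 (chr14:51690470-51690669, minus strand), which had a peak in all 6 libraries, Olfr222 (chr11:59384664-59384863, minus strand), with peaks in ESCs and shGFP alone, Olfr283 (chr15:98208976-98209175, minus strand), with peaks in ESCs and shSuz12 alone, and Olfr71 (chr4:43718871-43719070, minus strand), with peaks in all 6. Those with no peak in any library are receptors studied under other names or with a known ligand. They are Olfr17 (chr7:114241344-114241543, plus strand), also called P2, Olfr73 (chr2:87874725-87874924, minus strand), a receptor for eugenol, and Olfr1507 (chr14:53110068-53110267, minus strand), also called MOR28.
Olfr750: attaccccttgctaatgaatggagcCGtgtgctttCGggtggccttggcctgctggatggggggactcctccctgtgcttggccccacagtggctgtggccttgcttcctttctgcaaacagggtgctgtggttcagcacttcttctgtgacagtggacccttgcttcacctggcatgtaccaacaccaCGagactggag
Olfr222: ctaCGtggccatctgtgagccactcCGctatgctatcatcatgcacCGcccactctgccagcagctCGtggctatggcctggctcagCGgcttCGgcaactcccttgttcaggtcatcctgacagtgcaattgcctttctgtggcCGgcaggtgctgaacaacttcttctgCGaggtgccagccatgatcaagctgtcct
Olfr283: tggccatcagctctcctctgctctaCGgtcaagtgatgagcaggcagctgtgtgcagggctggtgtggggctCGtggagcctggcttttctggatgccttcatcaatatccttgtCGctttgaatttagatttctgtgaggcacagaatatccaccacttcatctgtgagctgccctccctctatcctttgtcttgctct
Olfr71: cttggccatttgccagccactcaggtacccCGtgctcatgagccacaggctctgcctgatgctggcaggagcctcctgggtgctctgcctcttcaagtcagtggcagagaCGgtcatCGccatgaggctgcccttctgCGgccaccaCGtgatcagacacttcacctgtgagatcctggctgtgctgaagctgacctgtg
Olfr17: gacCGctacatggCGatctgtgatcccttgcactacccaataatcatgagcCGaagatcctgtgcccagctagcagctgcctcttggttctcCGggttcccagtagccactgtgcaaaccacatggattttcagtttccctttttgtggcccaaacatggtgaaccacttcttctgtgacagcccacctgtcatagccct
Olfr73: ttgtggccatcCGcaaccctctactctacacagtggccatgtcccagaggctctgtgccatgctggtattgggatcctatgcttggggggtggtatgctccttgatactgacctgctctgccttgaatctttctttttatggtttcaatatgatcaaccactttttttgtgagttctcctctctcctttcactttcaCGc
Olfr1507: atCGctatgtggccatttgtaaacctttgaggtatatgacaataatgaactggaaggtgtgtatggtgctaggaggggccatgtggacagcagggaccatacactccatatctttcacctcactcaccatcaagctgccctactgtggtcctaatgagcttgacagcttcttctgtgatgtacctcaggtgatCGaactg

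The stretch held 8 CpGs in Olfr222, 5 in Olfr71, 4 in Olfr17, 3 in each of Olfr750 and Olfr283, and 2 in each of Olfr73 and Olfr1507, so that the count in 200 bp alone does not separate genes with and without a peak. The stretch of Olfr222 lay wholly under a peak in ESCs and shGFP and had none in shSuz12, and that of Olfr750 was covered over between 115 bp in liver and all 200 bp in ESCs, brain, shGFP and shSuz12. The stretch of Olfr71 was covered over 200 bp in ESCs, MEFs, brain and liver, over 91 bp in shGFP and not at all in shSuz12, where the peak lay elsewhere in the gene.

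Olfactory receptor genes were almost free of 5hmC peaks in every library. A peak overlapped the window of 51 of 1106 genes in ESCs (4.61%, 95% interval 3.45 to 6.02%), against 72.6% of all autosomal protein-coding genes. The number was 23 in MEFs (2.08%, 1.32 to 3.10%, against 66.8%), 15 in brain (1.36%, 0.761 to 2.23%, against 65.8%) and 8 in liver (0.723%, 0.313 to 1.42%, against 63%). It was 33 in shGFP (2.98%, 2.06 to 4.16%, against 68.2%) and 31 in shSuz12 (2.80%, 1.91 to 3.96%, against 68.1%). In the lists as deposited, ESCs had the most receptor genes with a peak and liver the fewest. Their lists both begin at a score of 80 but hold 171865 peaks in ESCs and 130408 in liver, and their depth is unknown. The intervals cover counting over genes within 1 library and do not test this difference. The lists of MEFs, brain, shGFP and shSuz12 reach down to other scores. The numbers of genes of all libraries are therefore given side by side only. When only peaks scoring 80 or more were kept, the shares were 0.452% in MEFs, 0.0904% in brain, 1.63% in shGFP and 0.271% in shSuz12, so that brain, shSuz12 and MEFs then lay below liver.

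Most genes of the genome are far longer than a receptor gene, which as annotated has a median span of 960.5 bp and in 928 of 1106 cases a single exon. The comparison was therefore made with the 3515 other autosomal protein-coding genes with a span between the 5th and the 95th percentile of the receptor genes, 927 to 5048.75 bp. Of these genes of similar length, 55.9% had a peak in ESCs, 42.3% in MEFs, 40.7% in brain, 44.9% in liver, 47.9% in shGFP and 45.1% in shSuz12. The share among receptor genes was 12.1, 20.4, 30.0, 62.1, 16.1 and 16.1 times lower, respectively. The genes of similar length still had a median span of 2713 bp, and a narrower range brought the groups closer. From 939 to 1069.75 bp, the 25th to 75th percentile of the receptor genes, there were 216 other genes, with a median of 7.68 CpG per kb, of which 19.4% had a peak in ESCs (14.4 to 25.4%), 20.8% in MEFs, 8.80% in brain, 13.4% in liver, 15.3% in shGFP and 14.4% in shSuz12. The receptor genes were then lower by 4.22, 10.02, 6.49, 18.6, 5.12 and 5.12 times, and the intervals of the shares still did not overlap in any library. Of these 216 genes, 63 belong to other chemoreceptor families, and without them the receptor genes were lower by between 5.81 times in ESCs and 26.2 times in liver.

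**Figure D1:**
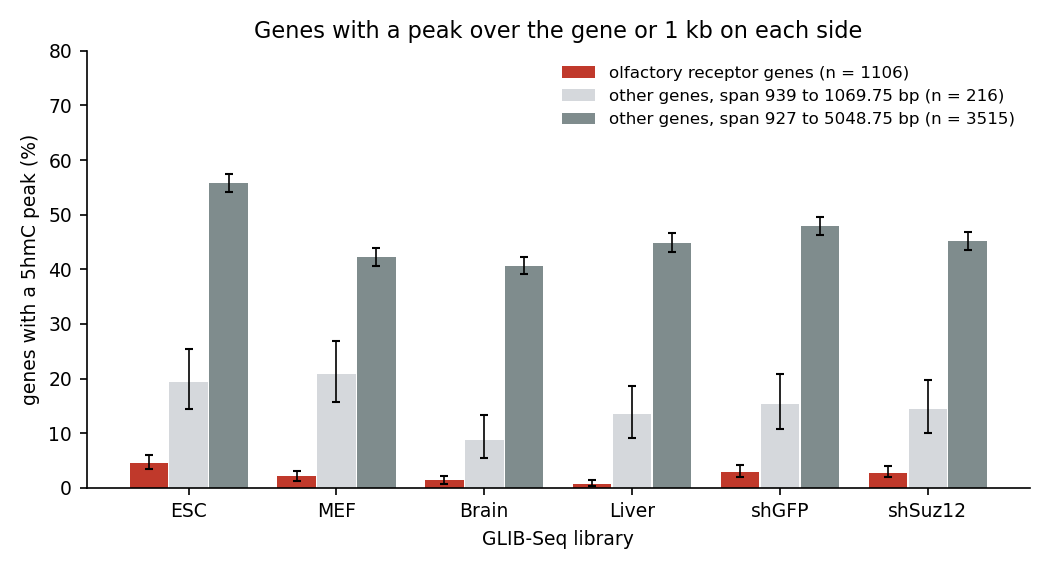
Percentage of genes with a 5hmC peak over at least 1 bp of the gene span or 1 kb on each side (vertical axis) in each GLIB-Seq library (horizontal axis), for the 1106 olfactory receptor genes (red), 216 other genes of a narrow length range (light grey) and 3515 of a wide one (dark grey). Error bars are exact 95% intervals over genes, and the red bars lie between 0.723 and 4.61%, below both grey bars in each library.

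Coverage in bp gave the same order of gene groups. Peaks covered 1.47% of the receptor windows in ESCs, 0.580% in MEFs, 0.410% in brain, 0.387% in liver, 0.757% in shGFP and 0.447% in shSuz12. The genes of similar length were covered over 21.4, 12.0, 13.5, 19.5, 15.1 and 9.14%, respectively. A single gene took much of the receptor coverage in some libraries. Olfr56 (chr11:48792391-48948889, plus strand) is annotated with a span of 156499 bp that 7 other protein-coding genes overlap, among them Ifi47 and Tgtp2, and 57.0% of the 50-mers of its window occur once in the genome. Its window held 4332 bp under peaks in ESCs, 7468 in MEFs, 3037 in brain, 9967 in liver, 3730 in shGFP and 1215 in shSuz12. Without Olfr56, the receptor windows were covered over 1.42, 0.416, 0.350, 0.152, 0.694 and 0.435%, and the value for liver fell the most.

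Across the libraries, 80 receptor genes (7.23%) had a peak in at least 1 library and 1026 had none in any, whereas 72.2% of the genes of similar length had one. Of the 80 genes, 42 had a peak in 1 library, 16 in 2, 11 in 3, 5 in 4, 2 in 5 and 4 in all 6. The 4 genes with a peak in all 6 libraries are Olfr56, Olfr750, Olfr70 and Olfr71, 0.362% of the receptor genes, whereas 14.8% of the genes of similar length had a peak in all 6.

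Olfr750 (chr14:51689986-51691117, minus strand, a single exon) is the last gene of a cluster of 28 in which no other member had a peak. Peaks covered 2481 bp of its 3132 bp window in ESCs, 685 in MEFs, 1132 in brain, 1854 in liver, 1199 in shGFP and 1668 in shSuz12. A peak over the coding exon was present in each of the 6 lists, with scores of 639 in ESCs, 43.5 in MEFs, 57.0 in brain, 182 in liver, 132 in shGFP and 161 in shSuz12. Scores are given by MACS within each list and are not compared between libraries. The neighbouring genes Olfr70 (chr4:43707872-43713679) and Olfr71 (chr4:43718500-43723103), both on the minus strand and with 2 exons, lie in a cluster of 6. For Olfr70 the covered bp were 2939 in ESCs, 1580 in MEFs, 1794 in brain, 388 in liver, 680 in shGFP and 608 in shSuz12, and for Olfr71 they were 1989, 1572, 1610, 805, 795 and 597. Both genes had their largest coverage in ESCs, while the smallest was in liver for Olfr70 and in shSuz12 for Olfr71.

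Among the genes with a peak in 5 libraries, Olfr718-ps1 is named as a pseudogene but annotated as protein-coding. It had 1720 bp under peaks in ESCs, 0 in MEFs, 942 in brain, 1400 in liver, 1273 in shGFP and 722 in shSuz12. For Olfr543, at the edge of the largest chromosome 7 cluster, the values were 1079, 0, 876, 845, 878 and 472 bp. In both genes the MEF list alone had no peak.

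**Figure D2:**
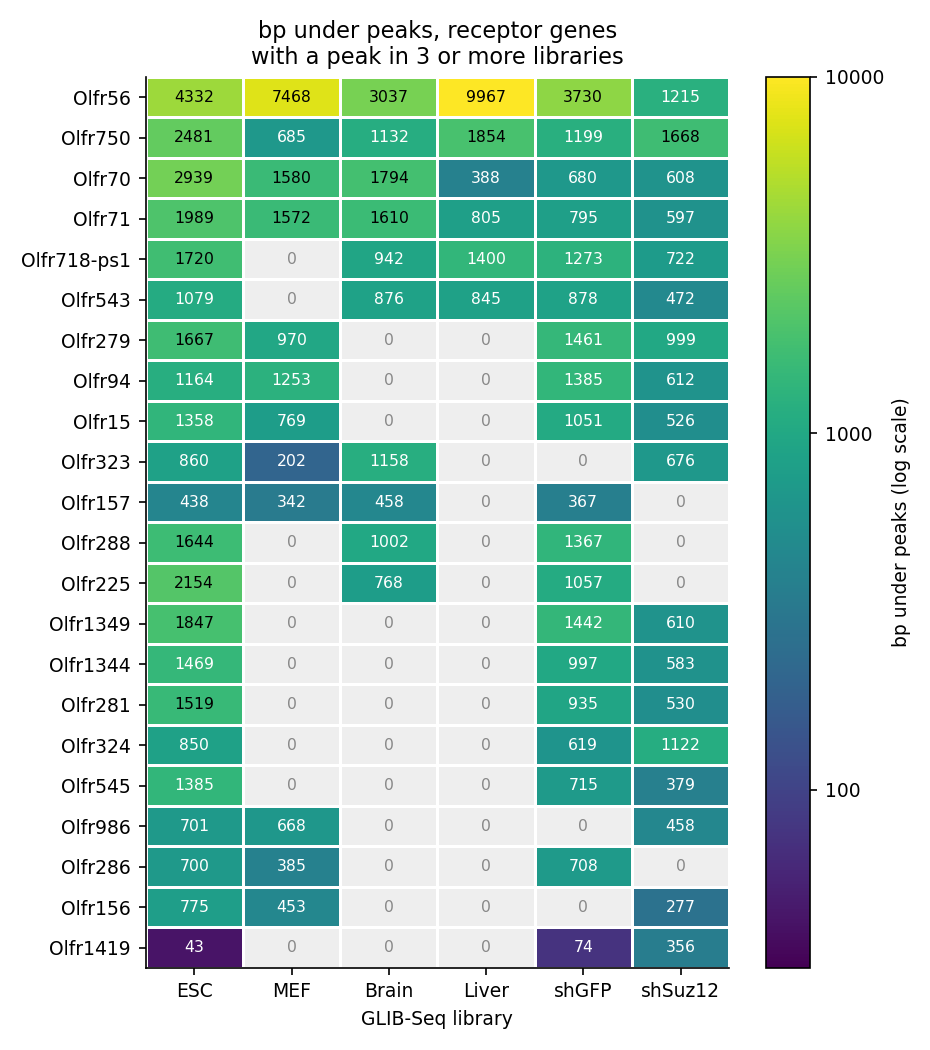
Base pairs of each window under 5hmC peaks in the 6 libraries (columns) for the 22 receptor genes with a peak in 3 or more libraries (rows), with the value printed in each cell, colour on a log scale and grey for no peak. All 22 genes had a peak in ESCs, and 16 of them had none in liver.

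Receptors that are widely studied in the nose were mostly without peaks, as were receptor genes as a whole. Of 13 such names, 12 are among the 1106 genes. A peak in any library was found in 2 of these 12, beside 80 of all 1106 receptor genes (7.23%). Olfr2 (I7, a receptor for octanal), Olfr17 (P2), Olfr73, Olfr78 (a receptor for short-chain fatty acids that is also found in blood vessels), Olfr151 (M71, a receptor for acetophenone), Olfr544, Olfr558, Olfr1440 (a receptor for muscone), Olfr1507 and Olfr1509 had 0 bp under peaks in all 6 libraries. Olfr16 (MOR23, a receptor for lyral that is also transcribed in testis) had 107 bp under a liver peak at the edge of its window, upstream of the gene, and none elsewhere. Olfr15 (chr16:3838975-3839913, plus strand) was the exception, with 1358 bp in ESCs, 769 in MEFs, 0 in brain, 0 in liver, 1051 in shGFP and 526 in shSuz12. Its peaks lay over the coding exon in each of these 4 libraries, from -278 to 1079 bp around the transcription start site (TSS) in ESCs and from 323 to 848 bp in shSuz12.

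Peaks covered the coding sequence of the receptor genes more than the flanks. In ESCs, peaks covered 3.24% of the coding bp of the receptor genes, 0.674% of the 1 kb upstream and 0.859% of the 1 kb downstream. In shGFP these values were 1.56, 0.321 and 0.449%, and in shSuz12 0.901, 0.254 and 0.232%. MEFs gave 0.861, 0.230 and 0.298%, brain 0.794, 0.224 and 0.0428%, and liver 0.303, 0.0524 and 0.196%. The coding sequence was thus covered more than either flank in each library. Introns were covered over 1.29% in liver and 1.10% in MEFs, more than the coding sequence there, but without Olfr56 over 0 and 0.186%. In the genes of similar length the contrast was smaller, with 31.9% of coding bp, 15.7% upstream and 17.1% downstream in ESCs. The annotated TSS lay under a peak in 22 receptor genes in ESCs, 7 in MEFs, 3 in brain, 1 in liver and 9 in each of shGFP and shSuz12. In the same order, these were 1.99, 0.633, 0.271, 0.0904, 0.814 and 0.814% of the receptor genes. Among genes of similar length the shares were 16.5, 8.53, 6.71, 9.02, 13.9 and 8.28%. Little of the receptor genes is annotated as noncoding exon, 109466 bp against 1042103 bp of coding sequence. In genes of similar length these are 2817448 and 2841098 bp. Whether the annotated TSS and upstream flank of receptor genes are those of the full transcript was not checked. The median score of the peaks on receptor windows was above that of the whole list in ESCs and brain and below it in the other libraries. It was 215 in ESCs against 178 over all autosomal peaks, 49.9 against 58.3 in MEFs, 51.7 against 49.8 in brain, 149 against 162 in liver, 78.6 against 87.2 in shGFP and 47.0 against 53.1 in shSuz12.

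CpG content set the receptor genes apart from genes of similar length. Their windows had a median of 4.49 CpG per kb (5th to 95th percentile 2.31 to 11.5), against 17.9 in the genes of similar length, and a GC content of 37.2% against 49.0%. Under 5 CpG per kb were 636 receptor genes (57.5%) and 9.36% of the genes of similar length, and at least 15 were 29 receptor genes (2.62%) and 58.9%. The 80 receptor genes with a peak in any library had a median of 11.5 CpG per kb, against 4.39 in the 1026 without. Genes with a peak had a median of 20.3 CpG per kb of coding sequence (interquartile range 11.8 to 27.9), against 6.83 (4.33 to 9.74) in genes without. The flanks differed too, with 8.03 against 3.51 CpG per kb over all flanks together. Reads were kept only where they matched once, and their length is not given in the sources used here, so that uniqueness was measured on exact 50-mers. The median share of 50-mers found once in the genome was 95.5% in receptor windows and 98.1% in genes of similar length, and it was at least 90% in 774 receptor genes (70.0%) and 77.5% of the others.

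Under 5 CpG per kb, where most receptor genes lie, both groups were nearly bare. At most 1 of the 636 receptor genes had a peak in a library (0.157%, 0.00398 to 0.873% in ESCs), against 0.608% of 329 genes of similar length in ESCs (0.0737 to 2.18%), and the intervals overlapped in each library. In the classes from 5 to 15 CpG per kb receptor genes had the lower share in every library, whereas in the densest class their share in ESCs was not the lower one. Between 5 and 10 CpG per kb, 3.12% of 385 receptor genes had a peak in ESCs, against 13.6% of 594 genes of similar length. The shares in MEFs, brain, liver, shGFP and shSuz12 were 2.60, 1.30, 0.519, 2.34 and 2.08%, against 14.3, 10.4, 14.1, 10.1 and 8.75%. With 10 to 15 CpG per kb, 25% of 56 receptor genes and 62.7% of 523 others had a peak in ESCs, and 5.36% and 38.4% in liver. With at least 15 CpG per kb, 82.8% of the 29 receptor genes had a peak in ESCs (64.2 to 94.2%), against 75.1% of 2069 others. In the same class the share was 24.1% in MEFs (10.3 to 43.5%) against 56.0%, 20.7% in brain (7.99 to 39.7%) against 55.4% and 10.3% in liver (2.19 to 27.4%) against 62.4%. In shGFP it was 55.2% (35.7 to 73.6%) against 67.3%, and in shSuz12 51.7% (32.5 to 70.6%) against 63.1%. The interval of the receptor genes thus held the share of the others in ESCs, shGFP and shSuz12, and lay below it in MEFs, brain and liver. It also lay below it in MEFs and brain when only peaks scoring 80 or more were kept, at 6.90% against 26.8% and 3.45% against 24.1%.

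Several values bear on this class. Its receptor genes had a median of 17.5 CpG per kb and the others 25.4, and between 15 and 20 CpG per kb the shares were 79.2% of receptor genes and 79.2% of the others in ESCs, 16.7 against 55.1% in MEFs, 16.7 against 55.9% in brain, and 8.33 against 51.3% in liver. Peaks covered 36.6% of the bp of the 29 windows in ESCs, against 29.8% in the others, and 4.41% against 27.6% in liver. The 29 genes lie in 14 clusters on 8 chromosomes, and 25 of them had a peak in some library. When the share of the genes of similar length in each of the 4 CpG classes was applied to the CpG classes of the receptor genes, the receptor genes were lower by 2.22 times in ESCs, 4.56 in MEFs, 5.58 in brain, 12.2 in liver, 2.63 in shGFP and 2.53 in shSuz12, in place of the 12.1 to 62.1 times without regard to CpG. Within the classes from 5 to 15 CpG per kb the receptor genes also had the lower medians, 6.12 against 6.94 and 11.5 against 12.6 CpG per kb. The genes of similar length used here are those of the wide range, with a median span of 2713 bp against 960.5 bp. CpG and length were not matched together.

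**Figure D3:**
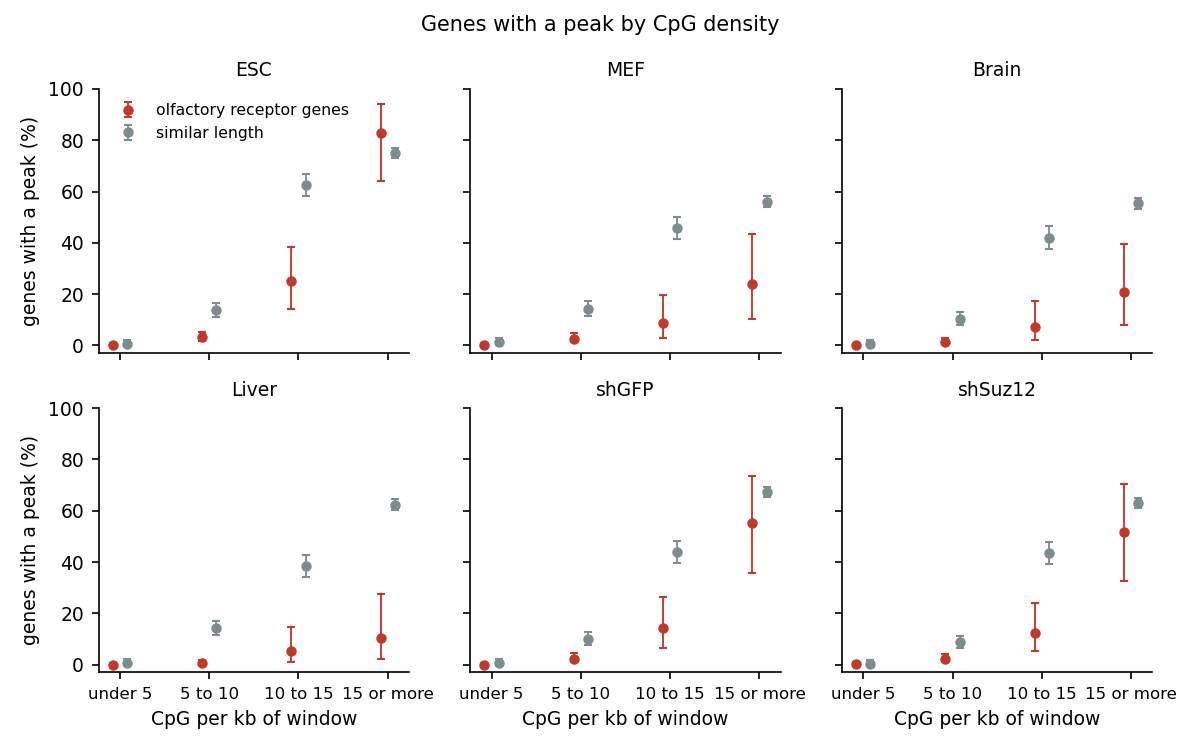
Percentage of genes with a peak (vertical axis) by CpG per kb of the window (horizontal axis) in each library, for olfactory receptor genes (red) and other protein-coding genes of similar length (grey), with exact 95% intervals over genes. With 15 or more CpG per kb the red point is at 82.8% in ESCs and 10.3% in liver, against 75.1 and 62.4% in grey.

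With gaps of at most 500 kb between neighbours, the 1106 genes formed 53 groups, of which 23 clusters held at least 10 genes (1004 genes in all), 20 held 2 to 9 genes (92 genes) and 10 were genes alone. A peak in any library was found in 49 genes (4.88%) of the large clusters, 27 (29.3%) of the small ones and 4 of the 10 genes alone. The small clusters were uneven. The 27 genes include 8 of the 9 in a cluster on chromosome 15 and 5 of the 6 in one on chromosome 4. In another, on chromosome 14 (chr14:52654757-53115370), 0 of 8 genes had a peak. The small clusters were also richer in CpG, with a median of 8.60 per kb against 4.35 in the large clusters. Of the 23 large clusters, 9 with 281 genes had no peak on any member in any library, among them 58 genes on chromosome 10 (chr10:128426905-129648205), 40 on chromosome 7 (chr7:114958094-116037934) and 37 on chromosome 2 (chr2:111070975-111997157).

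The largest cluster, of 221 genes on chromosome 2 (chr2:85171054-90122730), had a peak on 2 of them, Olfr52 in shGFP with 581 bp and Olfr1254 in ESCs with 218 bp. It contains the longest run of receptor genes without a peak, 158 genes from Olfr1045 to Olfr1253 over 3.56 Mb (chr2:86037960-89592983). Between the windows of this run there were 6 peaks in ESCs, 14 in shGFP and 13 in shSuz12, and 0 in each of MEFs, brain and liver. The next longest run, of 60 genes from Olfr1424 to Olfr1505 on chromosome 19, went the other way, with 9 peaks in ESCs, 20 in MEFs, 13 in brain, 42 in liver, 17 in shGFP and 14 in shSuz12. The run of 58 genes on chromosome 10 had 3 peaks in ESCs, 7 in shGFP and 3 in shSuz12, and 0 in MEFs, brain and liver. Runs without a peak on a receptor gene thus differed in which libraries had peaks between the receptor genes. Protein-coding genes of other kinds inside a run were not taken out of these counts. Such a gene lay 4553 bp from Olfr1441 in the chromosome 19 run and 7913 bp from Olfr247 in the chromosome 10 run. Whether the peaks lie on such genes was not tested. Of the 129 genes on chromosome 7 that include the class I receptors (chr7:109625287-112517869), a group related to the receptors of fish, 11 had a peak in any library, with 5 in ESCs, 3 in MEFs, 1 in brain, 1 in liver, 5 in shGFP and 3 in shSuz12.

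Peaks were frequent in 3 clusters that are described here as examples, chosen after their values had been seen. All but 1 of the 9 genes on chromosome 15 (chr15:98016444-98328837) had a peak in ESCs, while 2 had one in MEFs, 1 in brain, 0 in liver, 4 in shGFP and 4 in shSuz12. The median CpG density of these 9 windows was 17.5 per kb. The cluster of 6 genes on chromosome 4 (chr4:43707872-43868335), with Olfr70 and Olfr71, had 4 genes with a peak in ESCs, 4 in MEFs, 3 in brain, 2 in liver, 3 in shGFP and 4 in shSuz12, at a median of 12.0 CpG per kb. Among the 20 genes on chromosome 11 between Olfr30 and Olfr311 (chr11:58268417-58655544), 7 had a peak in ESCs, 1 in MEFs, 3 in brain, 0 in liver and 3 in each of shGFP and shSuz12. In the chromosome 15 cluster the genes with peaks in shGFP and shSuz12 were in part different ones. Olfr286 and Olfr288 had a peak in shGFP and none in shSuz12, Olfr283 and Olfr284 had one in shSuz12 and none in shGFP, and Olfr279 and Olfr281 had one in both.

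**Figure D4:**
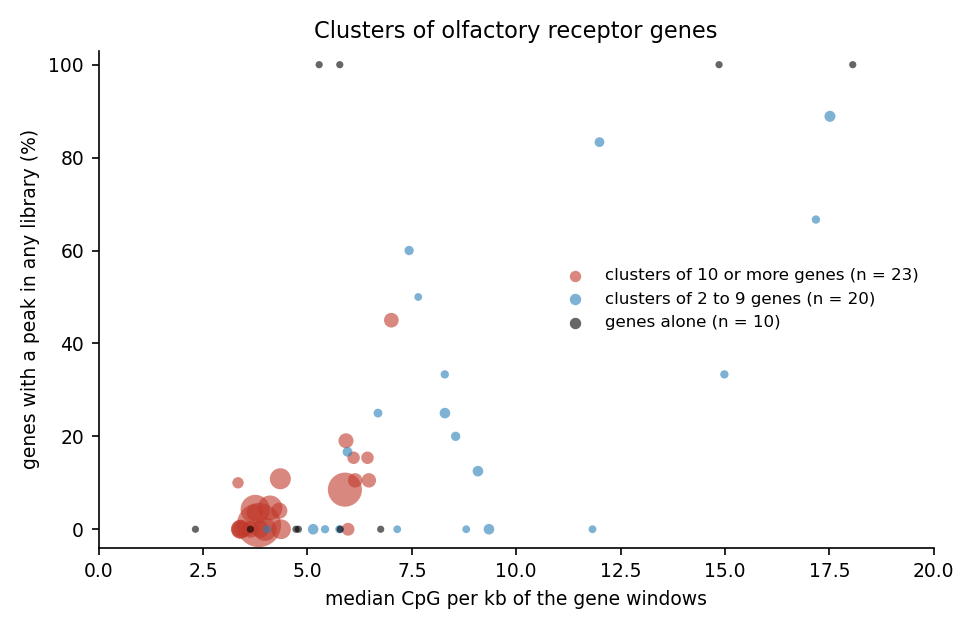
Percentage of the genes of each cluster with a peak in any of the 6 libraries (vertical axis) against the median CpG per kb of their windows (horizontal axis), with the area of a point rising with the number of genes. The 23 clusters of 10 or more genes (red) lie at low CpG and low shares, and the highest of them, with 20 genes on chromosome 11, has 9 genes with a peak (45%).

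The scarcity extended to the DNA between the genes. In the 23 large clusters, the DNA outside the windows of all protein-coding genes, 22.0 Mb, was covered by peaks over 0.379% in ESCs, 0.228% in MEFs, 0.12% in brain, 0.275% in liver, 0.419% in shGFP and 0.274% in shSuz12. Between genes elsewhere on the autosomes the values were 4.02, 5.89, 3.63, 2.55, 2.97 and 1.99%. CpG density and the share of unique 50-mers were measured for gene windows only. Their part in this difference between genes was not tested. Coverage changed at the edges of the clusters. Over the 500 kb outside, peaks covered on average 7.99% in ESCs, 5.10% in MEFs, 6.10% in brain, 7.56% in liver, 5.22% in shGFP and 3.60% in shSuz12. In the first 100 kb inside, the averages were 1.25, 0.641, 0.439, 0.464, 0.863 and 0.513%. Past 100 kb inside, they were 0.786, 0.396, 0.443, 0.780, 0.620 and 0.462%. Protein-coding genes of other kinds were not taken out of these averages, and their part in the change was not tested. Coverage was already lower in the last 50 kb before the edge, at 4.01% in ESCs and 2.93% in liver.

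**Figure D5:**
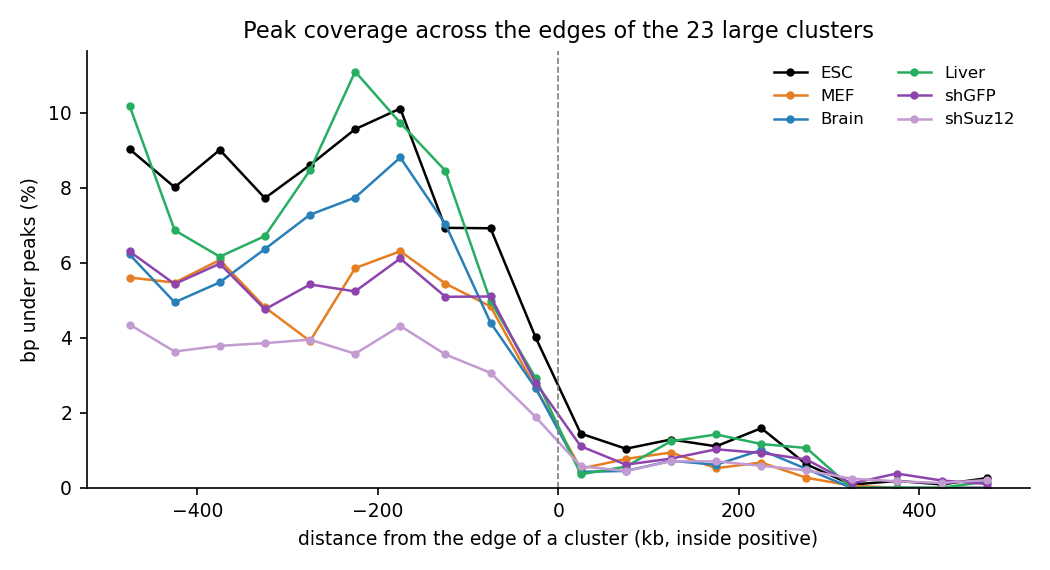
Mean percentage of bp under peaks (vertical axis) in bins of 50 kb by distance in kb from the edges of the 23 clusters of at least 10 receptor genes (horizontal axis, positive inside the cluster), 1 line per library. Bins past 300 kb inside rest on 20 to 26 edges, the bin next to the edge inside on 46, and all 6 lines fall between the 50 kb outside and the 50 kb inside.

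The distance of a receptor gene from genes of other kinds went with its peaks. Of the 104 receptor genes within 20 kb of another protein-coding gene, 30 had a peak in any library (28.8%), as did 44 of 345 at 20 to 100 kb (12.8%) and 6 of 657 further away (0.913%). CpG density fell along with it, with medians of 7.34, 5.38 and 3.92 per kb, and its part in this was not tested beyond the following split. Among receptor genes under 10 CpG per kb alone, the shares with a peak were 12.9% of 70, 6.31% of 301 and 0.923% of 650. Among those with 10 or more CpG per kb they were 61.8% of 34 and 56.8% of 44, close to each other, and 0 of 7 further away.

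Knockdown of Suz12 was compared with shGFP, the question of the study being whether PRC2 bears on 5hmC. Of the 33 receptor genes with a shGFP peak, 18 had no peak in shSuz12 (54.5%, 36.4 to 71.9%), against 8.86% of all autosomal protein-coding genes covered in shGFP. Long genes can keep a peak where a short one loses its only peak. Of 923 genes of similar length with exactly 1 shGFP peak, 30.3% were without one in shSuz12 (27.4 to 33.4%), against 55.2% of the 29 such receptor genes (35.7 to 73.6%). In the narrower length range the share was 40.7% of 27 (22.4 to 61.2%), an interval that overlaps that of the receptor genes. There was also movement the other way. Of the 31 receptor genes with a peak in shSuz12, 16 had none in shGFP (51.6%, 33.1 to 69.8%), against 8.55% of all other genes and 16.6% of genes of similar length. Between shGFP and untransfected ESCs, 29 of the 33 genes were shared, which is 87.9% of the shGFP genes and 56.9% of the 51 ESC genes. For genes of similar length these shares were 92.5 and 79.3%, and for all other genes 96.1 and 90.4%. In bp, coverage of receptor windows in shSuz12 was 0.590 times that in shGFP, close to the 0.606 times of the genes of similar length. The scores of the receptor peaks in shSuz12 were low, with 3 of 35 at 80 or more, against 19 of 38 in shGFP, and 17.0% and 56.1% of the whole lists. When only peaks scoring 80 or more were kept in both lists, this share of receptor genes without a peak in shSuz12 rose to 88.9%. That cut takes more from the shSuz12 list than from the shGFP list, and the share lost by other genes was not computed at it. Among genes of similar length with at least 15 CpG per kb, 53.9% had a peak at this cut in shGFP and 21.9% in shSuz12.

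The largest falls in covered bp from shGFP to shSuz12 were those of Olfr56, from 3730 to 1215, Olfr222, from 1805 to 0, Olfr95, from 1532 to 0, Olfr288, from 1367 to 0, and Olfr225, from 1057 to 0. The last 4 genes also had a peak in ESCs, with 2204, 1304, 1644 and 2154 bp, and the ESC peak of Olfr222 had the highest score of the receptor peaks in the ESC list, 1362. The largest rises were those of Olfr283, from 0 to 1173, Olfr323, from 0 to 676, Olfr272, from 0 to 595, Olfr284, from 0 to 585, and Olfr370, from 0 to 516. Of these, all but Olfr272 had a peak in untransfected ESCs too, with 2216 bp for Olfr283, 860 for Olfr323, 730 for Olfr284 and 1199 for Olfr370. In all, 30 receptor genes had more bp under peaks in shGFP and 19 more in shSuz12. Without a replicate of either library, the size of these differences has no check.

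Of the 51 receptor genes with a peak in ESCs, 12 also had one in MEFs, 11 in brain and 6 in liver. Set against the smaller lists, these are 12 of the 23 MEF genes (52.2%), 11 of the 15 brain genes (73.3%, 44.9 to 92.2%) and 6 of the 8 liver genes (75%, 34.9 to 96.8%). The same shares were 81.3, 85.7 and 80.2% for genes of similar length and 91.7, 93.3 and 91.4% for all other genes, so that the brain and liver intervals hold the share of genes of similar length. In genes of similar length, 61.6% of the ESC genes also had a peak in MEFs, 62.4% in brain and 64.5% in liver, against 23.5, 21.6 and 11.8% of the receptor genes. Olfr279, at the end of the chromosome 15 cluster, had 1667 bp under peaks in ESCs, 970 in MEFs, 0 in brain, 0 in liver, 1461 in shGFP and 999 in shSuz12. Olfr94, whose window has the highest CpG density of the receptor genes with 33.6 per kb, had 1164, 1253, 0, 0, 1385 and 612 bp. These 2 genes were named after their values had been seen. A peak in brain and liver without one in the ESC libraries was found in Olfr523, with 1067 bp in brain and 630 in liver.

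Most other chemoreceptor families were also poor in peaks. Of 203 genes of the Vmn1r family and 118 of the Vmn2r family, pheromone receptors of the vomeronasal organ, 1 and 5 had a peak in ESCs, 1 and 1 in MEFs, 0 and 0 in brain, 1 and 0 in liver, 1 and 6 in shGFP and 3 and 5 in shSuz12. The Vmn2r genes are far longer, with a median span of 23750 bp against 960.5 bp for the olfactory receptor genes. The median share of 50-mers found once was 87.0% in Vmn1r and 79.1% in Vmn2r windows, against 95.5% in olfactory receptor windows. Of 35 Tas2r bitter taste receptor genes, 1 had a peak, in liver. The 15 Taar genes, receptors for amines that are also used in the nose, had more, with 5 genes in ESCs, 3 in MEFs, 1 in brain, 3 in liver, 2 in shGFP and 3 in shSuz12, and a median of 7.47 CpG per kb. Of 132 annotated receptor pseudogenes, 6 had a peak in any library (4.55%), against 7.23% of the 1106 genes.

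Genes through which olfactory neurons choose, display and read out their receptors had peaks about as often as other genes or more often. From a list of 20, a peak was found in 20 in ESCs, 16 in MEFs, 19 in brain, 14 in liver, 17 in shGFP and 19 in shSuz12, beside 72.6, 66.8, 65.8, 63, 68.2 and 68.1% of all autosomal protein-coding genes. In the list, 13 had one in all 6 libraries, but most of them are far longer than receptor genes. Omp, the olfactory marker protein of mature sensory neurons, is short and had peaks over 93.8% of its 4143 bp window in ESCs, 91.2% in MEFs, 81.0% in brain, 95.3% in liver, 57.5% in shGFP and 35.2% in shSuz12. Other short genes of the list were covered less. In the same order, Gng13 was covered over 48.1, 0, 24.0, 0, 0 and 13.8%. Cnga4 was covered over 13.5, 6.85, 4.49, 0, 0 and 9.93%, while Rtp2 had a peak in all 6 libraries. Adcy3, the adenylyl cyclase of the odorant response, was covered over 36.2, 20.6, 27.6, 2.68, 24.2 and 14.1%. Lhx2, a transcription factor needed for receptor choice, had peaks over 19.6% in ESCs, 0 in MEFs, 4.99% in brain, 0 in liver, 24.7% in shGFP and 5.62% in shSuz12. Rtp1, which helps receptors reach the cell surface, had 1860 bp under peaks in ESCs, 0 in MEFs, 826 in brain, 540 in liver, 0 in shGFP and 547 in shSuz12.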

How the data were processed

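Genomic DNA was enriched for 5hmC by GLIB and sequenced, with 1 library for each of ESCs, MEFs, brain, liver, shGFP and shSuz12. Per the labels and the methods, the authors processed reads with CASAVA 1.8, aligned them to mm9 by Bowtie 0.12.7 with unique hits reported, removed duplicate reads, and ran MACS 1.4.1 on each library. The deposited files give the position and the score of each peak, and the score in MACS lists is 10 times the negative log10 of a p-value. The score threshold and the control of each list are not given in the sources used here. The lists hold no reads, so depth is unknown, and the length of a list depends on both depth and threshold. The RNA-Seq samples of shGFP and shSuz12 were not analysed here.

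Peaks on the nuclear chromosomes were set against GENCODE mouse release M1 on NCBIM37, the same assembly as mm9. All peaks lay within the chromosomes. A gene had a peak where at least 1 bp of its span with 1000 bp on each side was covered. CpG and GC content were read from the reference, and 50-mers taken every 10 bp were searched on both strands of the genome. Clusters are genes of 1 chromosome with gaps of at most 500 kb. The steps were tested on simulated peaks. Shares have exact 95% intervals, which cover counting error only, and with 1 library per condition no test between conditions was made. The genes and lists were chosen with earlier results of these data known. Genes named by rule are widely studied receptors (13 names), in each library the 3 receptor genes with the most covered bp, those with a peak in all 6 libraries, and the 5 with the largest fall and the 5 with the largest rise from shGFP to shSuz12. Others were named after their values had been seen. Alternatives were score thresholds, equal numbers of peaks, other windows, midpoints, unique sequence, other length ranges and cluster gaps. Python 3.11.15, numpy 2.4.6, pandas 2.3.3, scipy 1.17.1, numba 0.67.0 and matplotlib 3.10.9 were used.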

Additional observations from a re-analysis of the deposited data

How the results depend on the processing

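The ratio of the share of receptor genes with a peak to that of genes of similar length stayed below 1 in all 48 values under an alternative (0.00553 to 0.237). None of these alternatives took CpG content into account. With the comparison weighted by CpG class, the ratio lay between 0.0817 in liver and 0.450 in ESCs. In the class of 15 or more CpG per kb, 82.8% of receptor genes had a peak in ESCs, against 75.1% of the others. In the other libraries the receptor genes had the lower share in this class. The order of the libraries did change, as liver had the lowest share of receptor genes with a peak in the lists as deposited and brain, shSuz12 and MEFs lay below it at a score of at least 80. Of 136 values under an alternative, 60 moved, that is, left the counting interval or, for covered bp, which have none, changed in the 3 digits given. For these the cause was not tested. The score of at least 80 and the bin of 15 to 20 CpG per kb were applied to the class of 15 or more after seeing the data. The unknown depth limits any comparison between libraries. No paired analysis was possible because there is only 1 library per condition.

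With a score of at least 80, the share of receptor genes with a peak was 0.452% in MEFs, 0.0904% in brain, 1.63% in shGFP and 0.271% in shSuz12, covered bp were 0.255, 0.0389, 0.482 and 0.0660%, the ratio was 0.0233 in MEFs, 0.00553 in brain and 0.0184 in shSuz12, the share lost in shSuz12 was 88.9%, and in the class of 15 or more CpG per kb 6.90% in MEFs, 3.45% in brain and 10.3% in shSuz12 had a peak. With the top 50% of each list by score, the share in the 6 libraries (ESCs, MEFs, brain and liver, then shGFP and shSuz12) was 2.89, 0.723, 0.723, 0.271, 1.36 and 1.08%, covered bp were 1.08, 0.307, 0.263, 0.229, 0.425 and 0.192%, the ratio was 0.0266 in MEFs, 0.0382 in shGFP and 0.0368 in shSuz12, and the share lost was 80%. The share lost by other genes was not computed under either setting. With equal numbers of peaks, covered bp fell to 1.30% for ESCs, 0.403% for MEFs, 0.322% for brain and 0.395% for shSuz12, and the MEF share was 1.27%. Gene spans without flanks were covered over 2.29, 0.944, 0.727, 0.689, 1.19 and 0.682% in the 6 libraries in the same order, and windows with at least 90% of 50-mers found once over 1.72, 0.563, 0.499, 0.217, 0.850 and 0.487%. The ratio was 0.237, 0.0998, 0.154, 0.0539, 0.195 and 0.195 with the length range from the 25th to the 75th percentile, and 0.160, 0.0833, 0.0691, 0.0334, 0.123 and 0.130 with length deciles weighted alike.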
